A study of Mus musculus with 6 samples.

Results

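The genes described here drive, carry out or restrain cell division, together with the kinesin motor family. They were chosen by name from the table of normalised reads per gene, taking the Mcm and Orc genes of replication licensing, the Cenp genes of centromeres, the main cyclins and cyclin-dependent kinases (CDKs), the Cdkn genes, all numbered kinesins (Kif), Top2a and Mki67. A gene also needed 10 or more normalised reads in 3 or more of the libraries. All 93 names that matched passed this minimum, out of 14437 genes in the table and 14076 that passed it. The members nearest to the minimum were Kif6, Cenps and Cenpw, of which 3 libraries had at least 16.0, 22.7 and 22.8 normalised reads. Another CDK inhibitor, Cdkn2a, had no entry under that name in the table.

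The series compares endothelial cells of the cerebellum at postnatal day 9 between mice labelled Ccm3 knock-out (KO) and wild-type mice (WT), with 3 libraries per group and, by the sample descriptions, 1 mouse per library. All mice are labelled C57BL6. In both groups cerebella were dissociated with an adult brain kit, cells were isolated with CD45 beads and CD31 beads, and stranded libraries were made from total RNA depleted of ribosomal RNA. Ccm3 is today named Pdcd10, and loss of this gene causes cerebral cavernous malformations, clusters of enlarged brain vessels. The deleted part of the gene, the Cre driver if any, and the cells in which deletion took place are not stated in the labels used here.

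In the G1 phase of the cell cycle the origin recognition complex (Orc genes) loads the MCM2-7 helicase onto DNA, which licenses origins for S phase. D cyclins with Cdk4 and Cdk6, then E cyclins with Cdk2, release E2F factors from RB proteins and start replication, and the A and B cyclins with Cdk1 bring cells into mitosis. The INK4 inhibitors (Cdkn2 genes) block Cdk4 and Cdk6, and the CIP/KIP inhibitors (Cdkn1 genes) act on several cyclin-CDK complexes. Mitotic kinesins build the spindle and complete cytokinesis, while other kinesins carry cargo along microtubules in cells that do not divide. Endothelial cells of the postnatal cerebellum still divide as the vessel bed grows, next to dividing granule cell progenitors.

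Recovered reads per library lay between 11075769 and 20566507 in KO and between 16281778 and 21142333 in WT. Pdcd10 had 230, 154 and 309 normalised reads in KO 1, KO 2 and KO 3, against 529, 522 and 689 in WT 1, WT 2 and WT 3 (fold 0.387, adjusted p = 0.0162 with limma). Its adjusted p was 0.0511, 0.0605 and 0.0619 when WT 1, WT 2 or WT 3 was left out. Of 13 endothelial markers tested, none passed the test. Their summed level was 130100 to 157853 in KO and 146895 to 165392 in WT, with Pecam1, Cdh5 and Kdr all high. Markers of other cells were present in all libraries. The erythroid markers fell in 4 of 7 tested, with sums of 5478 to 6674 in KO and 10034 to 19943 in WT. All 4 lost their call without KO 2 or WT 2, and Alas2 also without KO 1, WT 1 or WT 3. Of 8 granule cell progenitor markers tested, Mycn rose and Zic2 fell, and their sums were 3050 to 4832 in KO and 3619 to 4107 in WT. The sums of the 9 pericyte and smooth muscle markers, none called, were 40630 to 53873 in KO and 39467 to 78372 in WT. In bulk RNA, fewer cells of a type and less RNA per cell cannot be told apart.

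The promoters of the members were searched for short motifs of cell cycle genes. Shown here are the 250 bases before the RefSeq start site (GRCm38.p6, all on the minus strand, written 5′ to 3′) of a hexamer subunit, 2 genes of mitosis and the inhibitor with the largest change among the members. Capitals mark matches, on either strand, to an E2F core (TTTGGCGC, TTTCCCGC, TTTCGCGC or TTTGCCGC), to the cell cycle homology region CHR (TTTGAA) or to a CCAAT box (CCAAT). Matches of the E2F core on opposite strands can overlap. The windows are chr1:128359706-128359955 for Mcm6, chr10:69352913-69353162 for Cdk1, chr7:135716380-135716629 for Mki67 and chr4:89311033-89311282 for Cdkn2b.
Mcm6: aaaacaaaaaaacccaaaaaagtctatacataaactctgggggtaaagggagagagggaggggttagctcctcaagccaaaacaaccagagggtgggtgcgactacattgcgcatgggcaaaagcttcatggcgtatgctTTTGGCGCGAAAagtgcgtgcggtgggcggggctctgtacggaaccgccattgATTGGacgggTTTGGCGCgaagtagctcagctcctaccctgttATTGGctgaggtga
Cdk1: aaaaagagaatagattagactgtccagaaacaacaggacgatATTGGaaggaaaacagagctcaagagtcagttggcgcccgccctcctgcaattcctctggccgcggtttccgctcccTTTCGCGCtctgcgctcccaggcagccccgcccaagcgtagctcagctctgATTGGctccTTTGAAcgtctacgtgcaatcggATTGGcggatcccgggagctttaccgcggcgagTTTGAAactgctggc
Mki67: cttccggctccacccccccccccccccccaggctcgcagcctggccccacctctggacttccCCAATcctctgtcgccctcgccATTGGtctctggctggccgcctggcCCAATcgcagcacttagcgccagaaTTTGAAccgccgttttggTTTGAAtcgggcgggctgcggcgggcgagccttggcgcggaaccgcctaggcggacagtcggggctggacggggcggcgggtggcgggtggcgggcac
Cdkn2b: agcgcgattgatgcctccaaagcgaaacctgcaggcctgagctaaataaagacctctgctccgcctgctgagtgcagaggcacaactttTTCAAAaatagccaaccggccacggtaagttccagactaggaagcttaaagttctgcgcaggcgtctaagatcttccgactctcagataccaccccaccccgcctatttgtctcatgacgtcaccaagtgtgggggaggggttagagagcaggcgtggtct
Mcm6 held 3 E2F core matches, of which 2 overlap as one run of capitals, and 2 CCAAT boxes. Cdk1 held 1 E2F core, 2 CHR and 3 CCAAT matches, and Mki67 held 2 CHR and 3 CCAAT matches. Cdkn2b held a single CHR match and neither of the other motifs.

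Motif shares were counted over RefSeq windows of 300 bases, from 250 before to 50 after the start. They covered 81 of the 93 members with 95 windows, since some genes have several start sites. An E2F core stood in 38.9% of the 18 licensing windows and in 66.7% of the 6 hexamer windows, against 2.26% of all 32851 windows in the table and 3.92% of the windows of all genes tested. It stood in 18.9% of the mitosis windows and in none of the 22 windows of transport and ciliary kinesins or the 7 windows of CDK inhibitors. The CHR motif stood in 90.0% of the 10 mitotic kinesin windows and in 80.0% of the 5 windows of the mitotic cyclin group, against 17.9% of all windows. It stood in 22.7% of the 22 centromere and kinetochore windows and in 5.56% of the licensing windows. CCAAT boxes were in 77.8% of the licensing windows and 75.7% of the mitosis windows, against 37.4% of all windows. These are matches of letters in short windows and no factor's binding was measured.

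Few of the cell division and kinesin genes passed the test of KO against WT libraries. Of the 93 members 1 rose (Kif13a), 2 fell (Cdkn2b and Ccnd2) and 90 did not pass the test, which was limma on log2(value + 1) with Benjamini-Hochberg adjustment over all genes tested and a limit of 0.05. That is 3.23% of the members, against 6.24% of all 14076 genes tested, of which 3.6% rose and 2.64% fell. The median log2 change was -0.01 over the members and -0.0067 over all genes tested, and 44 members had a positive and 49 a negative change. At an unadjusted p below 0.05 stood 11 of the members (11.8%), against 19.0% of all genes tested. The groups did not overlap for 17 members (18.3%), 9 higher and 8 lower in KO, against 25.5% of all genes tested, 12.8% in each direction. The 95% interval of the fold lay between 0.5 and 2 for 74 of the 93 members. Among the 59 genes of licensing, centromeres, cyclins, kinases and mitotic kinesins that interval held for 54, and 1 of the 59 was called. The quasi-likelihood test of edgeR on recovered reads called the same 3 members, against 6.37% of all genes. DESeq2 called 7 members (7.53%), 4 that rose and 3 that fell, against 9.75% of all genes, 5.72% up and 4.04% down. With the replicate number as a block 2 members were called (2.15%), 0 that rose and 2 that fell, against 5.46% of all genes, 3.16% up and 2.3% down.

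**Figure D1:**
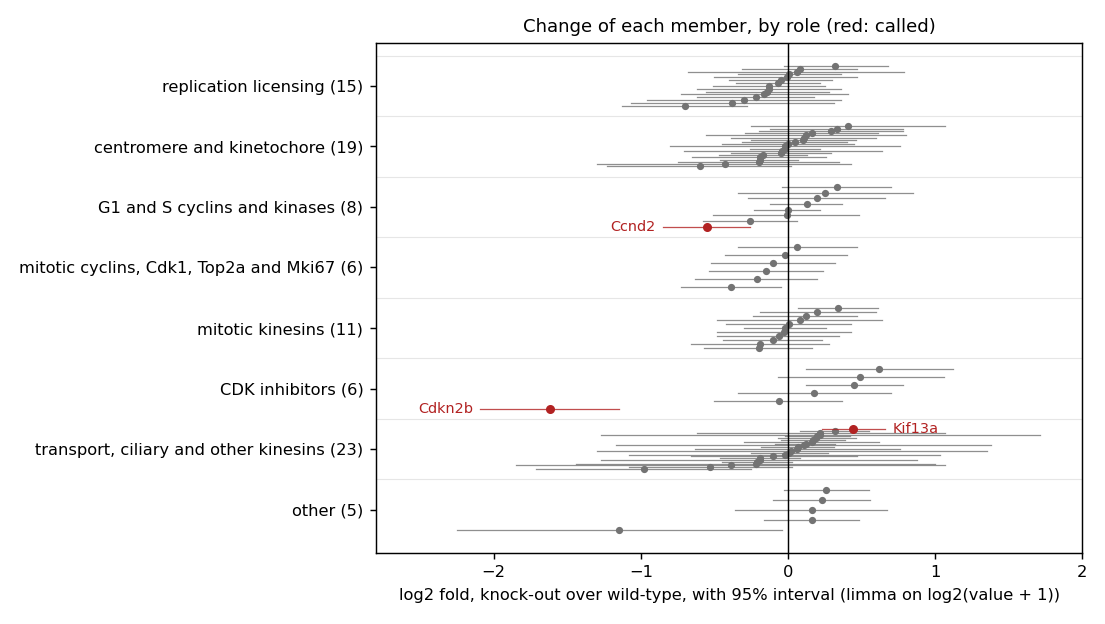
Log2 fold of each of the 93 members, KO over WT, with its 95% interval from limma, grouped by role with the number of genes in brackets. Only Cdkn2b (-1.62), Ccnd2 (-0.55) and Kif13a (0.44) passed the test and are drawn in red, and the points of centromere genes and mitotic kinesins lie around 0.

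No replication licensing gene was called in the main limma fit, which used all 6 libraries without library weights. The median log2 change of the 15 genes was -0.13 and 11 of them were negative. All 6 subunits of the MCM2-7 hexamer were negative with a median of -0.26, while the 6 subunits of the origin recognition complex had a median of -0.02, 3 positive and 3 negative. The hexamer median turned to 0.02 without KO 1 and lay between -0.46 and -0.16 when any other single library was left out.

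Mcm6, a hexamer subunit (chr1:128331590-128359664), had the smallest p of the licensing genes. It had 570, 971 and 880 normalised reads in KO 1, KO 2 and KO 3, against 1331, 1291 and 1226 in WT 1, WT 2 and WT 3. All KO libraries lay below all WT libraries, with means of 807 ± 211 in KO and 1283 ± 52.8 in WT (SD, n = 3 each). The fold was 0.614 (95% interval 0.456 to 0.826) and its adjusted p of 0.0693 with limma did not pass the limit. It passed with library weights (adjusted p = 0.0284), with DESeq2 (0.00823) and without KO 1 (0.0387).

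The other 5 subunits overlapped between the groups. Mcm2 had 444, 1005 and 939 normalised reads in KO 1, KO 2 and KO 3, against 1159, 1017 and 786 in WT 1, WT 2 and WT 3 (fold 0.768, adjusted p = 0.575 with limma). Mcm3 had 564, 1284 and 1107 normalised reads in the KO libraries in the same order, against 1375, 1118 and 968 in the WT libraries (fold 0.814, adjusted p = 0.659). KO 1 was the lowest of the 6 libraries for both, and KO 2 and KO 3 lay among the WT values. Mcm4 had 653, 1021 and 871 normalised reads in the KO libraries, against 1099, 888 and 796 in the WT libraries. Mcm5 had 329, 532 and 429 in the KO libraries, against 533, 489 and 457 in the WT libraries, and Mcm7 had 316, 453 and 593, against 504, 443 and 498. KO 1 was again the lowest for each. Their folds were 0.907 for Mcm4, 0.858 for Mcm5 and 0.914 for Mcm7.

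Set against the mean of the other 5 subunits in its own library, Mcm6 lay lower in every KO library. The log2 difference was 0.36, 0.29 and 0.24 in KO 1, KO 2 and KO 3, against 0.63, 0.81 and 0.86 in WT 1, WT 2 and WT 3. The groups did not overlap on this scale, with means of 0.30 ± 0.06 in KO and 0.77 ± 0.12 in WT, and the gap of -0.47 stayed between -0.54 and -0.42 with any single library left out. The same measure overlapped between the groups for each of the other 5 subunits. A two-sided exact permutation test of the Mcm6 measure gave p = 0.1, the smallest that 3 against 3 libraries allow, and 0.4 adjusted over the 6 subunits, so it did not pass. This measure was chosen after the values were seen.

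Licensing genes outside the hexamer were not called either. Mcm9, which works with Mcm8 in recombination repair rather than at origins, had 157, 149 and 142 normalised reads in KO 1, KO 2 and KO 3, against 134, 111 and 113 in WT 1, WT 2 and WT 3. All KO values were above all WT values, with a fold of 1.25 and an adjusted p of 0.316 with limma. Exons of Mcm9 overlap Asf1a on the opposite strand. Mcm10, which joins the helicase when replication starts, had a fold of 0.991. Folds of the Orc genes ran between 0.915 for Orc5 and 1.05 for Orc4.

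No centromere or kinetochore gene was called, and the median log2 change of the 19 genes was -0.02. Cenpa, the histone H3 variant that marks centromeres, had 223, 219 and 218 normalised reads in KO 1, KO 2 and KO 3, against 254, 249 and 251 in WT 1, WT 2 and WT 3. It was the only centromere gene whose groups did not overlap, and its fold was 0.875 (95% interval 0.728 to 1.05, adjusted p = 0.433 with limma). Cenpx, a small protein of the complex that holds Cenpt on DNA, had 52.8, 67.9 and 43.1 normalised reads in the KO libraries, against 99.5, 92.1 and 60.5 in the WT libraries (fold 0.658, adjusted p = 0.278). Only KO 2 overlapped with WT 3. Cenpt itself had a fold of 1.26 (adjusted p = 0.423) and Cenph, a subunit of the inner kinetochore, a fold of 1.33 (adjusted p = 0.521). The highest levels per kilobase of exon in this group belonged to Cenpb, which binds centromeric repeats, with means of 439 in KO and 434 in WT. Cenpe, a kinesin that moves chromosomes to the spindle equator, followed with 165 in KO and 172 in WT.

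Genes that mark dividing cells were expressed at high levels in both groups. Mki67, which coats mitotic chromosomes and is a standard mark of dividing cells, had 7782, 11512 and 10876 normalised reads in KO 1, KO 2 and KO 3, against 13082, 9942 and 9205 in WT 1, WT 2 and WT 3. KO 1 was the lowest and WT 1 the highest, and the other 4 libraries lay between them. The means were 10057 ± 2000 in KO and 10743 ± 2060 in WT (SD, n = 3 each), with a fold of 0.934 (95% interval 0.696 to 1.25, adjusted p = 0.844 with limma). Per kilobase of exon Mki67 averaged 1000 in KO and 1070 in WT, the highest of the members after Kif5b.

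Top2a, the topoisomerase that untangles sister chromatids, had 2559, 3752 and 3456 normalised reads in KO 1, KO 2 and KO 3, against 4321, 3239 and 3253 in WT 1, WT 2 and WT 3. Its groups overlapped in the same way, with a fold of 0.9 (95% interval 0.686 to 1.18, adjusted p = 0.717 with limma). Ccna2, the cyclin of S phase and early mitosis, had 655, 886 and 653 normalised reads in the KO libraries, against 1089, 885 and 889 in the WT libraries. Only KO 2 reached a WT value, and the fold was 0.762 (95% interval 0.601 to 0.967, adjusted p = 0.201). Cdk1, the mitotic kinase whose promoter is shown above, had 416, 550 and 568 normalised reads in the KO libraries, against 586, 485 and 402 in the WT libraries (fold 1.04, 95% interval 0.79 to 1.38). Its B cyclins had folds of 0.989 (Ccnb1) and 0.862 (Ccnb2).

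None of the 11 mitotic kinesins was called, and their median log2 change was -0.02. Kif23, the central spindle motor needed for cytokinesis, had 1031, 1187 and 1061 normalised reads in KO 1, KO 2 and KO 3, against 979, 844 and 767 in WT 1, WT 2 and WT 3. It was the only mitotic kinesin whose groups did not overlap, and the fold of 1.27 (95% interval 1.05 to 1.53) had an adjusted p of 0.155 with limma. Kif11, the motor that separates spindle poles, had 1158, 1398 and 1295 normalised reads in the KO libraries, against 1503, 1174 and 1246 in the WT libraries (fold 0.984, 95% interval 0.81 to 1.2). Kif15, which works beside Kif11 on the spindle, had a fold of 0.868. The chromosome-bound Kif4 had a fold of 1.15 and Kif18b, which shortens microtubules, a fold of 0.876. Over all 36 genes of mitosis, 14 changes were positive and 22 negative.

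Part of the replication and mitosis genes had their lowest value in KO 1 or their highest in WT 1. KO 1 was the lowest of the 6 libraries for 28 of the 59 genes of licensing, centromeres, cyclins, kinases and mitotic kinesins (47.5%), against 24.2% of all genes tested. WT 1 was the highest for 27 of the 59 (45.8%), against 16.9% of all genes tested. The median log2 distance from the WT mean over the 6 hexamer genes was -0.81, 0.08 and -0.07 in KO 1, KO 2 and KO 3, against 0.18, -0.02 and -0.16 in WT 1, WT 2 and WT 3. Over the 36 mitosis genes it was -0.23, 0.10 and 0.01 in the KO libraries, against 0.22, -0.09 and -0.10 in the WT libraries. The 6 genes of the origin recognition complex had another order, with -0.05, -0.17 and 0.15 in the KO libraries, against -0.08, 0.00 and 0.04 in the WT libraries.

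Other genes of the same processes, taken from lists, had list medians that were lowest in KO 1, while Ncaph and E2f7 had other orders. The 42 other S phase genes had no call and a median log2 change of -0.07, with library medians of -0.42, 0.19 and 0.06 in KO 1, KO 2 and KO 3, against 0.17, -0.03 and -0.13 in WT 1, WT 2 and WT 3. Of 49 other mitosis genes, Ncaph fell, none rose, and the median was -0.06. Ncaph, a condensin subunit that compacts chromosomes, had 730, 729 and 893 normalised reads in the KO libraries, against 1106, 1125 and 1220 in the WT libraries (fold 0.679, adjusted p = 0.025 with limma). Of 22 genes of the E2F and RB axis tested, E2f7, a repressor of E2F targets, rose and none fell. This list also holds the members Ccnd1, Cdk4 and Cdk6. E2f7 had 549, 553 and 460 normalised reads in the KO libraries, against 334, 362 and 340 in the WT libraries (fold 1.5, adjusted p = 0.0251). No KO value of either gene overlapped with WT. Both calls were lost without KO 1, KO 2, WT 1, WT 2 or WT 3, with adjusted p between 0.0568 and 0.111 for Ncaph and between 0.0583 and 0.107 for E2f7.

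**Figure D2:**
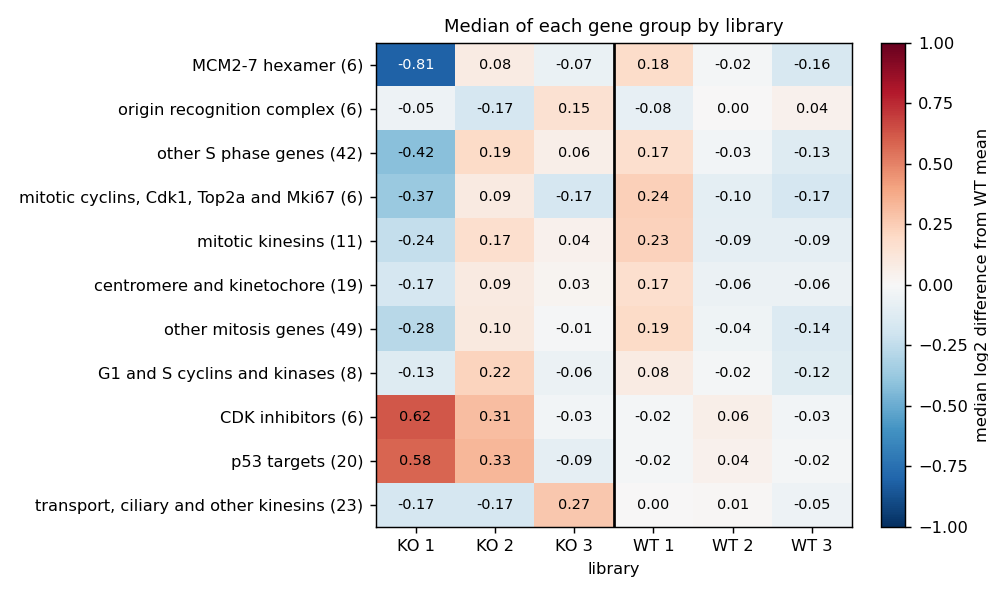
Median, over the genes of each group, of the log2 difference between a library and the WT mean, with the number of genes in brackets; KO libraries are left of the line and WT libraries right of it. KO 1 is lowest for the hexamer (-0.81) and other S phase genes (-0.42) and highest for the CDK inhibitors (0.62) and p53 targets (0.58).

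Of the G1 and S phase cyclins and kinases, Ccnd2 fell and the other 7 were not called. Ccnd2 (chr6:127125162-127152193), the D cyclin that mouse granule cell progenitors also use, had 1093, 1182 and 1257 normalised reads in KO 1, KO 2 and KO 3, against 1546, 1615 and 2063 in WT 1, WT 2 and WT 3. All KO libraries lay below all WT libraries, with means of 1177 ± 82.0 in KO and 1741 ± 281 in WT (SD, n = 3 each). The fold was 0.681 (95% interval 0.556 to 0.833, adjusted p = 0.0409 with limma). The call was lost without KO 1, KO 2, WT 1, WT 2 or WT 3, with adjusted p of 0.0936, 0.108, 0.0694, 0.119 and 0.104. Exons of Ccnd2 overlap 740 bases of 9330179D12Rik and Gm43126 on the opposite strand, and no source used here gives the strand setting of the counting. Of the 8 granule cell progenitor markers tested, 1 rose, 1 fell and 6 were not called. Mycn rose (fold 2.02, adjusted p = 0.00295) and kept its call in every alternative run for it. Zic2 fell (1000, 942 and 1015 normalised reads in the KO libraries, against 1237, 1400 and 1353 in the WT libraries, adjusted p = 0.0315). The part of these cells in the change of Ccnd2 was not tested. The Zic2 call was lost with the replicate block (adjusted p = 0.0757) and when any library but KO 3 was left out (0.0534 to 0.173).

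Ccnd1, the D cyclin with the highest level, had 2691, 3389 and 3217 normalised reads in KO 1, KO 2 and KO 3, against 2810, 2708 and 2967 in WT 1, WT 2 and WT 3 (fold 1.09, 95% interval 0.919 to 1.3, adjusted p = 0.609 with limma). Of its 4709 exon bases, 1100 overlap LTO1 on the opposite strand. Ccnd3 had 984, 954 and 655 normalised reads in the KO libraries, against 691, 714 and 630 in the WT libraries (fold 1.26, adjusted p = 0.328). KO 1 and KO 2 lay above all WT libraries for Ccnd3 and KO 3 did not, and without KO 3 it passed the test (adjusted p = 0.0281). As a share of the 3 D cyclins per kilobase of exon, Ccnd2 made up 14.5%, 13.2% and 15.0% in KO 1, KO 2 and KO 3, against 19.6%, 20.7% and 23.8% in WT 1, WT 2 and WT 3. The gap of -7.14 percentage points stayed between -8.04 and -5.92 with any library left out. Ccnd1 made up 71.5%, 75.4% and 76.6% in the KO libraries, against 71.1%, 69.4% and 68.4% in the WT libraries, and neither share overlapped between the groups. The 3 shares of a library add up to the whole, so a lower Ccnd2 share raises the others. The Ccnd1 share therefore cannot be read apart from that of Ccnd2. The summed level of the D cyclins per kilobase was 800, 954 and 891 in the KO libraries, against 840, 828 and 921 in the WT libraries, which overlap. Exact permutation tests (two-sided) gave p = 0.1 for the Ccnd2 and Ccnd1 shares, the smallest possible here, and 0.15 adjusted over the 3 shares, so neither passed. The shares were computed after the values were seen.

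The E cyclins and the kinases that D and E cyclins activate were not called. Cdk4 had 336, 439 and 425 normalised reads in KO 1, KO 2 and KO 3, against 515, 485 and 430 in WT 1, WT 2 and WT 3 (fold 0.836, adjusted p = 0.376 with limma). KO 2 overlapped with WT 3. Cdk6 had a fold of 1.15, Cdk2 a fold of 0.997 (95% interval 0.853 to 1.16), Ccne1 a fold of 1.19 and Ccne2 a fold of 0.991, with adjusted p between 0.68 and 0.991.

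Of the 6 CDK inhibitors Cdkn2b fell and none rose. Cdkn1a, Cdkn1b and Cdkn1c had higher means in KO without passing the test. Cdkn2b (chr4:89306299-89311039) encodes p15, an INK4 inhibitor of Cdk4 and Cdk6. It had 79.2, 75.7 and 102 normalised reads in KO 1, KO 2 and KO 3, against 218, 253 and 330 in WT 1, WT 2 and WT 3. Every KO library lay below every WT library, with means of 85.7 ± 14.4 in KO and 267 ± 57.7 in WT (SD, n = 3 each). The fold was 0.326 (95% interval 0.235 to 0.451, adjusted p = 0.00404 with limma), and the call held in all 17 alternatives tried.

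**Figure D3:**
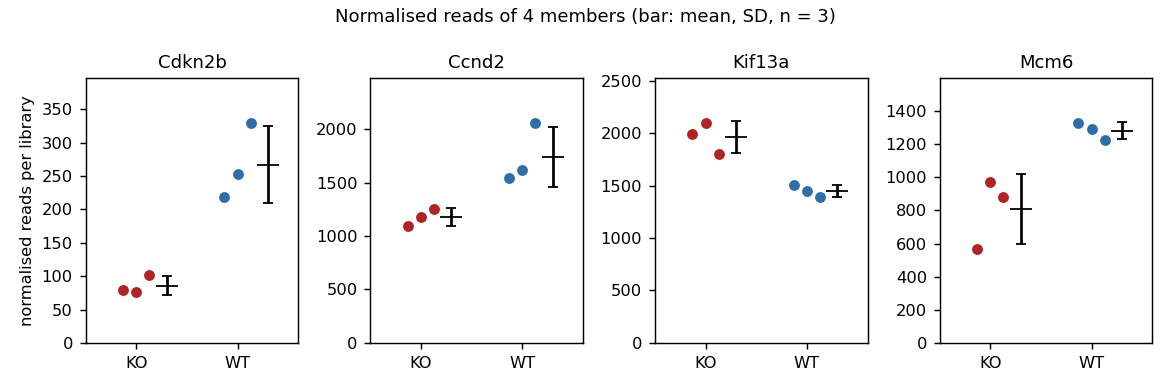
Normalised reads per library of Cdkn2b, Ccnd2, Kif13a and Mcm6, with KO left of WT, a point for each of 3 libraries per group, and the mean and SD beside them. The groups do not overlap in any of the 4 panels, and Mcm6 (adjusted p = 0.0693) is the only gene of the 4 that did not pass the test.

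The 3 CIP/KIP inhibitors were highest in KO 1 or KO 2. Cdkn1b, which encodes p27 and holds cells in quiescence, had 2143, 1533 and 1495 normalised reads in KO 1, KO 2 and KO 3, against 1217, 1192 and 1326 in WT 1, WT 2 and WT 3. Its groups did not overlap, with a fold of 1.37 (95% interval 1.08 to 1.72, adjusted p = 0.131 with limma), and it passed with library weights (0.0498) and with DESeq2 (0.0412). Cdkn1c, which encodes p57, had 1119, 683 and 595 normalised reads in the KO libraries, against 495, 541 and 466 in the WT libraries. Every KO value was above every WT value, and KO 1 stood well above the other KO libraries. The fold was 1.54 (95% interval 1.09 to 2.18, adjusted p = 0.164), and it passed with DESeq2 (0.0359). Of the 2039 exon bases of Cdkn1c, 625 overlap Gm44732 on the opposite strand, and the strand setting of the counting is not known.

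Cdkn1a, which encodes p21 and is a classical target of p53, had 1102, 1140 and 572 normalised reads in KO 1, KO 2 and KO 3, against 581, 674 and 656 in WT 1, WT 2 and WT 3. KO 1 and KO 2 lay above all WT libraries and KO 3 was the lowest of the 6. The fold was 1.41 (95% interval 0.95 to 2.09, adjusted p = 0.335 with limma), and without KO 3 the log2 change was 0.82 with an adjusted p of 0.00579. The INK4 genes Cdkn2c and Cdkn2d had folds of 0.956 and 1.13. The median log2 change of the 6 inhibitors was 0.32, and between 0.19 and 0.47 with any library left out.

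The shares of Cdkn2b, Cdkn1b and Cdkn1c in the inhibitor pool did not overlap between the groups. As a share of the 6 inhibitors per kilobase of exon, Cdkn2b made up 3.74%, 4.56% and 7.54% in KO 1, KO 2 and KO 3, against 16.2%, 17.6% and 22.6% in WT 1, WT 2 and WT 3. The gap of -13.5 percentage points stayed between -14.9 and -11.6 with any library left out. Cdkn1c made up 36.1%, 28.1% and 29.9% in the KO libraries, against 25.1%, 25.7% and 21.7% in the WT libraries. Cdkn1b made up 30.9%, 28.2% and 33.7% in the KO libraries, against 27.6%, 25.4% and 27.7% in the WT libraries. The shares of the other 3 overlapped. All shares of a library add up to the whole pool, so a lower Cdkn2b share raises the others. The Cdkn1b and Cdkn1c shares therefore cannot be read apart from that of Cdkn2b. The summed level per kilobase was 1520, 1190 and 975 in the KO libraries, against 969, 1030 and 1050 in the WT libraries, where KO 3 overlaps with WT 1. Exact permutation tests (two-sided) gave p = 0.1 for the shares of Cdkn2b, Cdkn1b and Cdkn1c, the smallest possible here, and 0.2 adjusted over the 6 shares, so none passed. These shares were also computed after the values were seen.

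**Figure D4:**
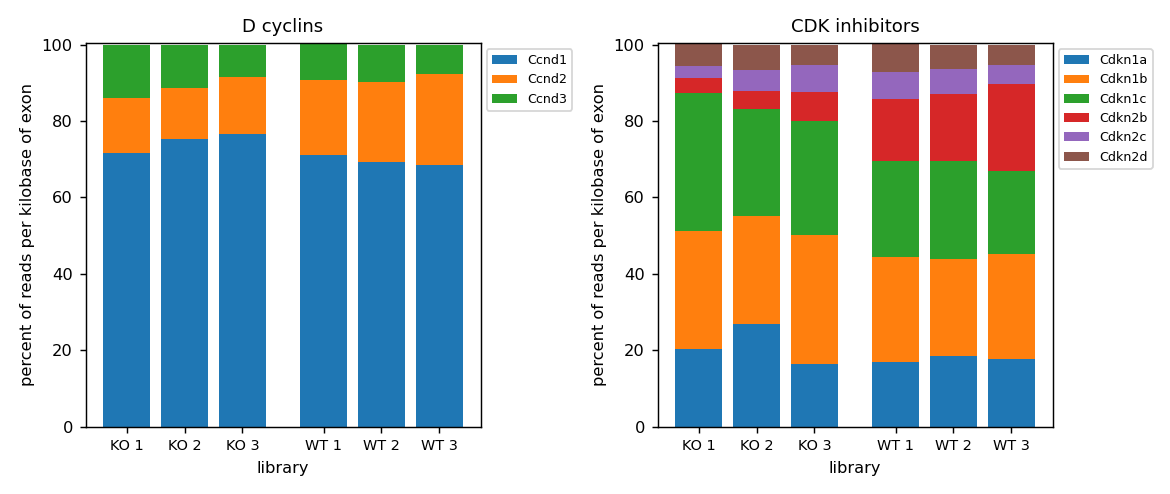
Share of the summed reads per kilobase of exon that each D cyclin (left) and each CDK inhibitor (right) made up in every library, with KO bars left of WT bars. The Ccnd2 share was 13.2% to 15.0% in KO and 19.6% to 23.8% in WT, and the Cdkn2b share was 3.74% to 7.54% in KO and 16.2% to 22.6% in WT.

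Lists of p53 targets and quiescence genes were read beside the inhibitors. Of 20 genes in the p53 target list, which also holds Trp53 itself, 3 rose and none fell. The median log2 change of the list was 0.14, against -0.0067 over all genes tested. The 3 that rose were Tnfrsf10b, a death receptor (466, 498 and 371 normalised reads in the KO libraries, against 177, 198 and 214 in the WT libraries, fold 2.25, adjusted p = 0.00445 with limma), Plk2, a stress-responsive kinase (fold 1.57, adjusted p = 0.0145), and Bbc3, which promotes apoptosis (fold 1.75, adjusted p = 0.0397). Over all genes tested, 3.6% rose and 2.64% fell. Among the p53 targets, KO and WT did not overlap for 6 genes higher and 3 lower in KO, against 12.8% of all genes in each direction. The 3 lower ones, not called, were Sesn1 (fold 0.737), Ei24 (0.831) and Aen (0.812). The library medians of this list were 0.58, 0.33 and -0.09 in KO 1, KO 2 and KO 3, against -0.02, 0.04 and -0.02 in WT 1, WT 2 and WT 3. Those of the 6 CDK inhibitors were 0.62, 0.31 and -0.03 in the KO libraries, against -0.02, 0.06 and -0.03 in the WT libraries. The 16 quiescence genes, which include Cdkn1b, had a median log2 change of 0.2. Their library medians were 0.43, 0.15 and 0.02 in the KO libraries, against -0.04, 0.05 and 0.04 in the WT libraries. The median was thus highest in KO 1 and near WT in KO 3 for all these groups. Genes of a group differed in KO 3, where Cdkn2b lay below every WT value and Cdkn1b, Cdkn1c, Tnfrsf10b, Plk2 and Bbc3 above. Bbc3 lost its call without KO 1, KO 2, WT 1, WT 2 or WT 3 (adjusted p between 0.0693 and 0.143), and Plk2 without WT 1, WT 2 or WT 3 (0.0534 to 0.0715). Of 16 quiescence genes, Klf4, a transcription factor that slows division in many cells, rose (fold 1.82, adjusted p = 0.0101). Gas6, a secreted ligand of TAM receptors, fell (fold 0.641, adjusted p = 0.023). Among the 16, KO and WT did not overlap for 6 genes higher and 2 lower in KO. Klf4 lost its call without WT 1 (0.0502) and Gas6 with the replicate block (0.0504) and without KO 2 or any WT library (0.0671 to 0.0921).

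Among the 23 transport, ciliary and other kinesins Kif13a rose and the other 22 were not called, with a median log2 change of 0.06. Kif13a (chr13:46749087-46929867), a kinesin-3 motor that moves recycling endosomes and other cargo toward the cell surface, had 1996, 2102 and 1799 normalised reads in KO 1, KO 2 and KO 3, against 1504, 1447 and 1387 in WT 1, WT 2 and WT 3. All KO libraries lay above all WT libraries, with means of 1966 ± 154 in KO and 1446 ± 58.4 in WT (SD, n = 3 each). The fold was 1.36 (95% interval 1.17 to 1.58, adjusted p = 0.0313 with limma). The call was lost with the replicate block (0.058) and without KO 1, KO 2, WT 1, WT 2 or WT 3 (0.0647, 0.0906, 0.0936, 0.145 and 0.119).

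Kif5b, the widely expressed heavy chain of conventional kinesin, had the highest level per kilobase of all members, 1560 in KO and 1250 in WT. It had 13635, 11357 and 12298 normalised reads in KO 1, KO 2 and KO 3, against 10184, 9533 and 10122 in WT 1, WT 2 and WT 3. The groups did not overlap, and the fold was 1.25 (95% interval 1.06 to 1.47, adjusted p = 0.132 with limma), passing with DESeq2 (0.0261). Kif1c, a motor of vesicles, came next among these kinesins with 559 per kilobase in KO and 532 in WT. Kif26b, an atypical kinesin, had 20.7, 15.0 and 22.7 normalised reads in the KO libraries, against 37.9, 52.1 and 29.8 in the WT libraries (fold 0.507, adjusted p = 0.134), and passed with library weights (0.0475). Kif7, which controls hedgehog signalling at the primary cilium, had 67.9, 118 and 119 normalised reads in the KO libraries, against 142, 155 and 132 in the WT libraries (fold 0.694, adjusted p = 0.29). For both, every KO value lay below every WT value.

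The 5 kinesins used mainly by neurons were highest in KO 3. Kif21b had 273, 475 and 1416 normalised reads in KO 1, KO 2 and KO 3, against 325, 730 and 623 in WT 1, WT 2 and WT 3. Kif5c had 163, 279 and 685 normalised reads in the KO libraries, against 240, 379 and 359 in the WT libraries. Kif5a, Kif1a and Kif21a were also highest in KO 3. Beside them, the sum of 7 granule neuron markers was 681, 1003 and 4069 in KO 1, KO 2 and KO 3, against 961, 1571 and 1895 in WT 1, WT 2 and WT 3, with Reln at 191, 292 and 1610 in the KO libraries, against 183, 405 and 579 in the WT libraries. Of the 7, Etv1 was lowest in KO 3 (54.5) and Cbln1 highest in WT 3 (29.8), while the others were highest in KO 3. None of the 7 was called. The sum of 9 markers of other neurons, none called, was 519, 480 and 1113 in the KO libraries. In the WT libraries it was 1472, 920 and 869, so this sum was highest in WT 1. The part of neuronal RNA in these kinesins was not tested. Without KO 3 the median log2 change of the 23 kinesins was -0.18.

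Of the 4 kinesins of motile cilia, Kif9, Kif27 and Kif6 had their highest KO value in KO 1 and their highest WT value in WT 1, and Kif19a did not. Kif9 had 77.3, 28.1 and 22.7 normalised reads in KO 1, KO 2 and KO 3, against 71.3, 34.7 and 19.0 in WT 1, WT 2 and WT 3. Kif27 had 71.7, 13.7 and 14.8 normalised reads in the KO libraries, against 52.7, 21.4 and 30.7 in the WT libraries. Kif6 had 19.8, 11.7 and 14.8 normalised reads in the KO libraries, against 32.7, 16.0 and 9.93 in the WT libraries. Kif19a, which limits the length of motile cilia in mice, was highest in KO 3, as the neuronal kinesins were. It had 17.9, 24.8 and 110 normalised reads in the KO libraries, against 23.0, 52.1 and 26.2 in the WT libraries. The sum of 6 ependymal and choroid plexus markers was 59462, 12622 and 9578 in the KO libraries, against 21590, 12844 and 12018 in the WT libraries, most of it Ttr, and none of the 6 was called. This sum was highest in KO 1 and WT 1, and the part of these cells in the kinesin values was not tested. Over all members, 15 had a KO value more than 2 times the lowest KO value, and 5 had such a spread among the WT libraries.

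**Figure D5:**
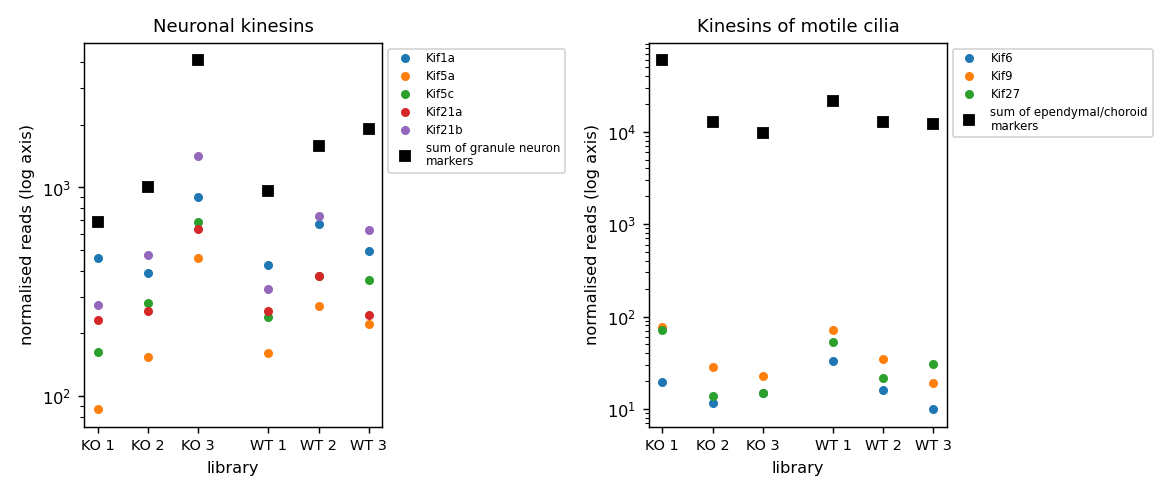
Normalised reads on a log axis in each library, KO left of WT, for 5 kinesins of neurons with the sum of granule neuron markers (left) and for 3 of the 4 kinesins of motile cilia with the sum of ependymal and choroid plexus markers (right). The neuronal kinesins and their marker sum (4069) are highest in KO 3, and Kif6, Kif9, Kif27 and their marker sum have their highest KO value in KO 1 and their highest WT value in WT 1.

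Of the 5 remaining members none was called. Cenpv, a microtubule-bundling protein, had 5.66, 22.8 and 15.9 normalised reads in KO 1, KO 2 and KO 3, against 27.5, 28.0 and 34.3 in WT 1, WT 2 and WT 3 (fold 0.451, 95% interval 0.21 to 0.97, adjusted p = 0.244 with limma). All KO values lay below all WT values at these low counts. Cdkn2aip, a binding partner of the ARF tumour suppressor, had 510, 473 and 392 normalised reads in the KO libraries, against 383, 374 and 386 in the WT libraries (fold 1.19, adjusted p = 0.327). Its relative Cdkn2aipnl had a fold of 1.17, the centriole protein Cenpj 1.12 and the phosphatase Cdkn3 1.11.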

How the data were processed

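RNA-seq of 6 libraries was analysed, 3 per group. Trim Galore, STAR 2.5.3a, the GRCm38 build and DESeq2 are named in the submitters' processing notes. No source used here gives the read counter, annotation or strand setting. The values are a normalised signal per gene that the authors deposited, with read counts divided by a size factor per library. Dividing each library by its step recovered whole reads for 100% of values (tolerance 0.01 of a read). A gene with 3 reads has a value of 1.96 to 3.41, the medians were 182 to 309 reads per gene, and the chi-square between replicates was 14.1 to 58.4 per degree of freedom. With 3 libraries per group the spread between replicates limits precision. Positions, exon lengths and overlaps come from GENCODE M21 (GRCm38) and promoters from RefSeq. Exons of other members named here, such as Cdkn1a, Cdk4, Ccna2 and Kif7, also overlap genes on the opposite strand.

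The 14076 genes with 10 or more normalised reads in 3 or more libraries were tested with limma 3.58.1 (R 4.3.3) on log2(value + 1) (genotype, empirical Bayes with trend, two-sided) and Benjamini-Hochberg adjustment, limit 0.05. Fold changes on this scale understate those of low genes. The script was tested on simulated data. edgeR 4.0.16 and DESeq2 1.42.0 were run on the recovered reads as alternatives, beside 3 other scalings, other pseudocounts and minimums, library weights, a replicate block and each library left out.

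Members and lists were chosen with earlier results of these data known. Named are called members, in each role group the 4 smallest p and the 2 highest levels per kilobase, called genes of other lists, and Mki67, Top2a, Ccnd1, Cdkn1a, Cdkn1b and Cdkn1c; other Mcm, cyclin, kinase and kinesin members were named after their values were seen. The main limma fit did not use the replicate numbers, and a fit with them as a block was run as an alternative. Deviations of same-numbered libraries correlated at 0.101, 0.11 and 0.192, while KO 2 and WT 1 correlated at 0.295. The labels state no shared litter or day.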

Additional observations from a re-analysis of the deposited data

How the results depend on the processing

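Over 17 alternatives, the 56 genes named by rule gave 946 values, of which 876 kept their side of the limit, 60 lost a call and 10 gained one. No called gene reversed, and 11 genes that were not called changed sign under at least 1 alternative. Cdkn2b kept its call throughout. DESeq2 gave 805 genes that rose and 568 that fell over all genes, of which 7 were members. With a library left out, 185 to 646 genes rose and 98 to 386 fell. Members that rose numbered 2 with library weights, 4 with DESeq2, 0 with the replicate block and 0 to 3 with a library left out. Members that fell numbered 4 with library weights and 1 to 2 with a library left out. The replicate block gave 445 genes that rose and 324 that fell (5.46% of all genes tested), took the calls of Kif13a (0.058), Gas6 (0.0504) and Zic2 (0.0757), and changed no other call named here. The median log2 change of the transport and ciliary kinesins turned to -0.11 with library weights and lay between -0.18 and 0.14 with a library left out. The hexamer median was 0.02 without KO 1. Other scalings and pseudocounts left the 3 member calls as they were. Cenpv, Kif6, Cenps and Cenpw rest on few reads. So do Kif27 (13 to 76 recovered reads per library), Kif19a (19 to 97), Kif9 (20 to 96) and Kif26b (20 to 78). Leaving out libraries for the Mcm6, Ccnd2 and Cdkn2b shares was added after seeing the data.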

Other observations

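Mycn, a transcription factor that drives growth and division and a marker of granule cell progenitors, rose. It had 573, 662 and 561 normalised reads in KO 1, KO 2 and KO 3, against 293, 320 and 274 in WT 1, WT 2 and WT 3 (fold 2.02, 95% interval 1.67 to 2.45, adjusted p = 0.00295 with limma). All KO values lay above all WT values, and the call held in every alternative run for it. The other called progenitor marker, Zic2, went the other way, and the median log2 change of the 8 progenitor markers tested was -0.37.

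Of 3 platelet markers tested, Tubb1 rose, with 26.4, 153 and 159 normalised reads in KO 1, KO 2 and KO 3, against 11.9, 7.34 and 11.7 in WT 1, WT 2 and WT 3 (adjusted p = 0.0351 with limma). The call was lost when any library but KO 1 was left out (0.0794 to 0.14). The erythroid gene Hba-a1 had 3405, 2846 and 3265 normalised reads in the KO libraries, against 10105, 7160 and 5092 in the WT libraries (fold 0.441, adjusted p = 0.0199), and lost its call without KO 2 (0.0815) or WT 2 (0.0859). The lists of other neurons (9 tested), oligodendrocyte lineage (9), astrocytes and Bergmann glia (9), fibroblasts (6) and microglia and leukocytes (5) held no called gene.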
